A study of Mus musculus with 18 samples.

Results

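Invariant distal regions are stretches of the mouse genome at which both nuclear factor I proteins assayed, NFIA and NFIB, had a strong summit in every library, at every stage of medulloblastoma formation, and which lay far from the ends of genes. From each library the 30000 summits with the highest scores on the 19 autosomes were taken, widened by 100 bp on each side and merged over the 18 libraries. A merged region was a member when all 18 libraries had such a summit in it and its midpoint lay more than 5 kb from both ends of every protein-coding gene span, inside a gene or between genes. This gave 3443 members, among 6124 regions with a top summit in every library, 28125 distal regions with one in at least 3 libraries, and 103011 merged regions in all. Presence in every library chose the members, so that presence itself is a description and carries no test.

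The libraries were made by CUT&Tag, a method in which an antibody against a protein brings a transposase to its sites, so that nearby DNA is cut and sequenced. They came from granule neuron progenitors (GNPs) at postnatal day 7, from hyperplasia at postnatal day 28, called PNCs in the protocol, and from medulloblastomas of adult mice, with 100000 cells from a Percoll gradient per library. There were 3 preparations at each stage, and by the titles an NFIA and an NFIB library came from every one of the 9 preparations. The names of the data disagree in 6 libraries: in the first preparation of each stage both data names carry NFIA, and in the third both carry NFIB. Replicate numbers also differ between titles and data names in most libraries. The titles are followed here for targets and preparations, and neither disagreement is settled. The labels call the animals a genetically engineered model without naming an allele, a transgene or the cells it acts in, and a cell line named in the design text was not analysed here. Stage and age changed together, and the tumor preparations carry other title dates than the rest, so that stage, age and date cannot be told apart in a comparison with tumors. Whether the preparations came from separate animals is not said, so p-values rest on the scatter of preparations alone, which may be technical.

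Nuclear factor I proteins are a family of transcription factors (NFIA, NFIB, NFIC and NFIX) that bind DNA as dimers to a palindrome of TTGGC half-sites, and can also bind a single half-site. In the cerebellum they are known for roles in the maturation of granule neurons, in axon and dendrite growth, and in the formation of glia. Sites far from gene ends are often enhancers, which act on promoters over a distance. GNPs proliferate in response to Sonic hedgehog (SHH), and the medulloblastomas that arise from them depend on the same pathway. Regions are named below by the nearest protein-coding gene, which need not be the gene they act on.

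Sequence was at hand for promoter windows from RefSeq (assembly GRCm38.p6), which run from 250 bases before to 50 bases after the start of each gene, not for the regions as such. Of the 31396 windows on autosomes, 197 were overlapped by 170 members (4.94% of the members). Among the other distal regions 3.29% overlapped a window, and 76.9% of the 2092 regions that had a summit in every library and lay within 1 kb of a gene end did so. Of the 170 members, 90 overlapped a window of a protein-coding gene, whose start can lie inside the gene span, and 88 one of a long non-coding RNA gene, with 8 in both counts. The 4 windows printed first belong to the members that kept the best ranks among those whose median summit lay inside a window with a TTGGC half-site, and show where such half-sites fall. Capitals mark TTGGC on either strand (read as GCCAA on the opposite strand) in the first 4 windows, and in the last 2 windows a palindrome of TGGC and GCCA with 5 bases between them, which is why those are shown.
Gm15743: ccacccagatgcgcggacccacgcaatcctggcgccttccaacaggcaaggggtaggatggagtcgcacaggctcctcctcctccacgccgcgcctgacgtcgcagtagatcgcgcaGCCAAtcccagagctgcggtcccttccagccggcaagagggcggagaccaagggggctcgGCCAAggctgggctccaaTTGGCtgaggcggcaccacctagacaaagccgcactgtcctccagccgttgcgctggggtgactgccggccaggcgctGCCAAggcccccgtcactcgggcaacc
Ddx50: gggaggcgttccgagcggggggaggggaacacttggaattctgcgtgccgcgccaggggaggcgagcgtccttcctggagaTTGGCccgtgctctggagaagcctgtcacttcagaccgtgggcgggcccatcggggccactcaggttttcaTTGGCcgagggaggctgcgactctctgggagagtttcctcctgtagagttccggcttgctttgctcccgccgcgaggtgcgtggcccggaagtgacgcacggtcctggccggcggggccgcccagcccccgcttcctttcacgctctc
Mir22hg: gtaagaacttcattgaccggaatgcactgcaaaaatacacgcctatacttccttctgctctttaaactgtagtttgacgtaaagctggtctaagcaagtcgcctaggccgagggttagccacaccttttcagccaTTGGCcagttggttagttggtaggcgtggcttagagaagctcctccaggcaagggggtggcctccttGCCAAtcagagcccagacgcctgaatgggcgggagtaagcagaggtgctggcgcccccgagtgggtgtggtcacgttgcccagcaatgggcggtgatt
Stag1: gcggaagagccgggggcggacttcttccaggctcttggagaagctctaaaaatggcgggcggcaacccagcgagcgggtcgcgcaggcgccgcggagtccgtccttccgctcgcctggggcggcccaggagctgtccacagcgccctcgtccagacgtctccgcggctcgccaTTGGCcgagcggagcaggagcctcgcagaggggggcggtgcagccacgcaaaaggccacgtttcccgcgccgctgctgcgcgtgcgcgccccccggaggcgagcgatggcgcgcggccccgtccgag
Gm9530: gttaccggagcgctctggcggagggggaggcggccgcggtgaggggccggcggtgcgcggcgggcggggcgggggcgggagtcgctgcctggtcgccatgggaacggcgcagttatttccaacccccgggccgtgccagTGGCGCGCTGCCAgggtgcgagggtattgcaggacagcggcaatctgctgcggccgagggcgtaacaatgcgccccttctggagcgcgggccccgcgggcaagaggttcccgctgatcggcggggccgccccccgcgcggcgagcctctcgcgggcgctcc
Gm30701: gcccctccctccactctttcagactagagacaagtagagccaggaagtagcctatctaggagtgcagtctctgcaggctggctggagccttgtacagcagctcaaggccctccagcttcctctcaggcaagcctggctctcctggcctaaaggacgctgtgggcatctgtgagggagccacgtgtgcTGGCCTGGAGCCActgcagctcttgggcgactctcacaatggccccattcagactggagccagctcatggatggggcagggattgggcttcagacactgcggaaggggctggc

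The Gm15743 window (chr16:31429727-31430026, minus strand) starts a long non-coding RNA inside Bdh1, which encodes a ketone body enzyme. It holds 4 half-sites, and the median summit of the 18 libraries lay at base 206 of the window, counted from its 5' end. The Ddx50 window (chr10:62651169-62651468, minus strand) lies inside the span of this RNA helicase gene, holds 2 half-sites and had its median summit at base 104. The Mir22hg window (chr11:75461289-75461588, plus strand) starts the host transcript of miR-22 near Tlcd2, holds 2 half-sites and had its median summit at base 144. The ranks of these members over the 18 libraries, where rank 1 is the strongest summit of a library, were 32 to 1708 for the Gm15743 window, 94 to 1787 for Ddx50 and 23 to 2252 for Mir22hg. In the Stag1 window (chr9:100643198-100643497, plus strand; Stag1 encodes a cohesin subunit) the only half-site starts at base 174, where the median summit also lay. The last 2 windows, of the long non-coding RNAs Gm9530 (chr1:155083215-155083514, minus strand) near Ier5 and Gm30701 (chr4:135298276-135298575, minus strand) near Srrm1, hold the palindrome. Their members stood lower, with ranks of 516 to 11248 and 1304 to 13926.

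The full palindrome, TTGGC and GCCAA with 5 bases between them, was in 0 of the 197 windows overlapped by members, against 0.0382% of all windows of this length, or 12. The shorter palindrome, TGGC and GCCA with 5 bases between them, was chosen after the data were seen and was in 3 (1.52%), against 3.31% of the windows overlapped by other distal regions and 0.825% of all windows. Both strands were searched. The median summit lay inside 104 of the 197 windows overlapped by members, so that the shares given are not shares at summits. TTGGC on either strand was in 60.4% of the windows overlapped by members, against 55.7% of those of other distal regions, 61.4% of those at gene ends and 46.7% of all windows. The AP-1 motif TGANTCA was in 8.63%, against 7.05% of those of other distal regions, 2.92% of those at gene ends and 7.84% of all windows. The windows also differ in base composition, with a median GC content of 58.7% in those overlapped by members, 56.0% in those of other distal regions, 63.7% at gene ends and 53.0% over all, and its part in these shares was not tested. The shorter motifs can overlap the longer ones, and windows are few and near gene starts, so that they do not stand for the 3273 members that overlapped none.

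Of the 3443 members, 1808 (52.5%) lay inside a protein-coding gene and 1635 (47.5%) between genes. The other distal regions, with a summit in 3 to 17 libraries, lay inside a gene in 52.4% of cases. The median distance from a member to the nearest gene end was 37668 bp (quartiles 15972 and 94688 bp), against 41886 bp for the other distal regions. More than 100 kb from any gene end lay 811 members (23.6%), and 50 lay more than 500 kb away. Members were wider than the other distal regions, with a median of 573 bp against 442 bp. The median was 555 bp for distal regions with a summit in 17 libraries. For the gene end regions with a summit in every library it was 557 bp. The part that merging summits of more libraries had in these widths was not tested. Within 1 kb of an end of a non-coding gene lay 209 members (6.07%), against 5.87% of the other distal regions, and 188 members (5.46%, against 4.75%) lay that close to a long non-coding RNA gene.

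The number of distal regions fell with the number of libraries that shared them and then climbed again at the top. It was 3929 at 3 libraries, 1038 at 12, 1644 at 17 and 3443 at 18. Of the 1644 regions that missed membership by 1 library, 1247 (75.9%) had a listed summit in that library that ranked below the 30000 kept. The second NFIA library of hyperplasia was the missing one in 593 (36.1%) of them, and it is also the library in which 20.4% of the kept summits share the score of the last one kept.

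**Figure D1:**
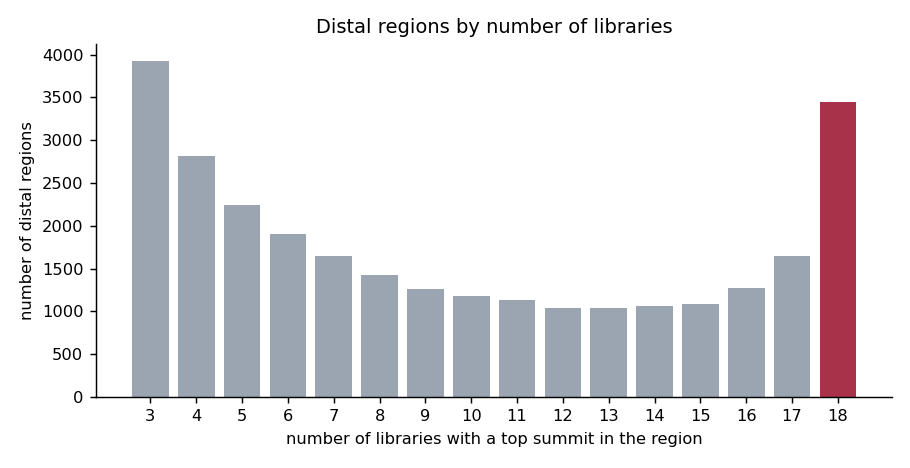
Number of distal regions (vertical axis) by the number of libraries with a top summit in them (horizontal axis). The bar at 18 libraries, in red, holds the 3443 invariant distal regions, and the lowest bars stand at 12 and 13 libraries.

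The members nearest to the limits of the rule, and the regions just outside, were as follows. Nearest to the distance limit were members inside Cacna1a, a calcium channel gene, at 5011 bp from a gene end, near Robo3 at 5023 bp and inside Slc29a2 at 5027 bp. The nearest regions on the other side of it lay at 4988 bp (Kctd6), 4972 bp (Ush1g) and 4954 bp (Gpr153). The worst ranks among members were 29988 near Atp11b and near Klf14, and 29965.5 near Ncam1. The nearest regions that failed had rank 30007, 30017 and 30021 in their only missing library, near Dtwd2, 3110082I17Rik and Krtap5-2.

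Scores of different libraries are not on 1 scale, since the deposited lists hold between 49948 and 385466 summits and depth is unknown. Each region was therefore given the rank of its best summit among the 30000 kept, with rank 1 at the top and tied scores sharing their mean rank, and differences were taken on the scale of log2(30000/rank), where 1 unit stands for a factor of 2 in rank. A rank is relative: a region can move down because others moved up. The median rank of the members in a library lay between 3682 and 5752, and between 12.1% and 15.3% of the kept summits of a library fell into members. By stage, the medians over 6 libraries were 4099 in GNPs, 4511 in hyperplasia and 4007 in tumors. For the 2092 gene end regions they were 3967 in GNPs, 3103 in hyperplasia and 4568 in tumors.

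Members thus stood lower than gene end regions in hyperplasia and higher in most tumor preparations. The member median minus the gene end median of log2(30000/rank) was 0.03, -0.19 and -0.32 in the 3 GNP preparations, -0.38, -0.44 and -0.89 in hyperplasia, and 0.37, 0.11 and -0.06 in tumors. The 3 tumor values all lay above the 3 hyperplasia values, and the GNP values overlapped those of tumors but lay above those of hyperplasia. Both sets were chosen by presence in the same libraries, and these medians are given without a test.

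**Figure D2:**
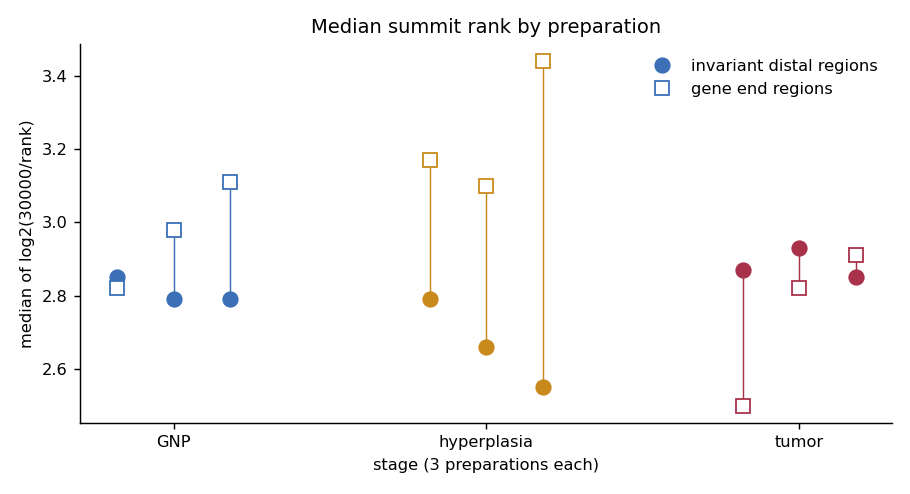
Median of log2(30000/rank) (vertical axis) over the invariant distal regions (filled circles) and over the gene end regions (open squares) in each of the 3 preparations of each stage (horizontal axis), joined by a line. The circles lie below the squares in all 3 hyperplasia preparations, most in the third, and above them in 2 of the 3 tumor preparations.

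Invariant presence did not mean a constant rank. The worst rank of a member was 12.9 times its best at the median (quartiles 8.29 and 21.4, range 2.59 to 4600). In every library at rank 10000 or better stood 1027 members (29.8%), and 51 (1.48%) stood at rank 1000 or better. The SD of log2(30000/rank) over the 18 libraries had a median of 1.01 and was smallest, at 0.43, inside Arhgef10l and near Cd46, followed by Btbd11 (0.45), Xpo4 (0.47) and Alk (0.48). The Xpo4 region had ranks between 2086 and 6510 in all 18 libraries. The best rank of the region near Cd46 was 10056.5 and its worst 29778.5, so that this member stood close to the limit of 30000 and could not have moved much further down.

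The 10 members with the best worst rank carried some of the strongest summits of every library. The region near Edn2 (chr4:120188827-120189106, 21606 bp from the gene, which encodes the peptide endothelin 2) had ranks of 8 to 85 in GNPs (median 17), 1 to 38 in hyperplasia (median 7) and 1 to 15 in tumors (median 5). It was the top summit of 1 or more libraries in hyperplasia and in tumors. Near Pdgfa, which encodes a growth factor for oligodendrocyte progenitors, the medians were 66, 76 and 46, with a worst rank of 224. A region inside Hhat (chr1:192696527-192696805), the acyltransferase that modifies hedgehog ligands, had medians of 58, 61 and 40 and a worst rank of 236.

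Inside Sdk1, a cell adhesion gene, a member 118966 bp from the nearest gene end had medians of 76, 96 and 56 in GNPs, hyperplasia and tumors. The region near B3gnt2, a glycosyltransferase gene, had medians of 38, 102 and 92. Near Mycn (chr12:12904243-12904853, 31545 bp from the gene), the transcription factor gene that SHH switches on in proliferating GNPs, the ranks were 15 to 70 in GNPs (median 24), 13 to 296 in hyperplasia (median 72) and 20 to 296 in tumors (median 88). The 3 ranges overlapped. Further members of this group lay near Gm45871, Endov and Zbtb46, with worst ranks of 301, 322 and 332. A further member of high rank, singled out after its values were seen, 1035288 bp from Lrrc4c (chr2:98666700-98667220, ranks 1 to 399), lies in an interval that is known to draw excess reads in many mouse assays, and no control library was used here to judge it.

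**Figure D3:**
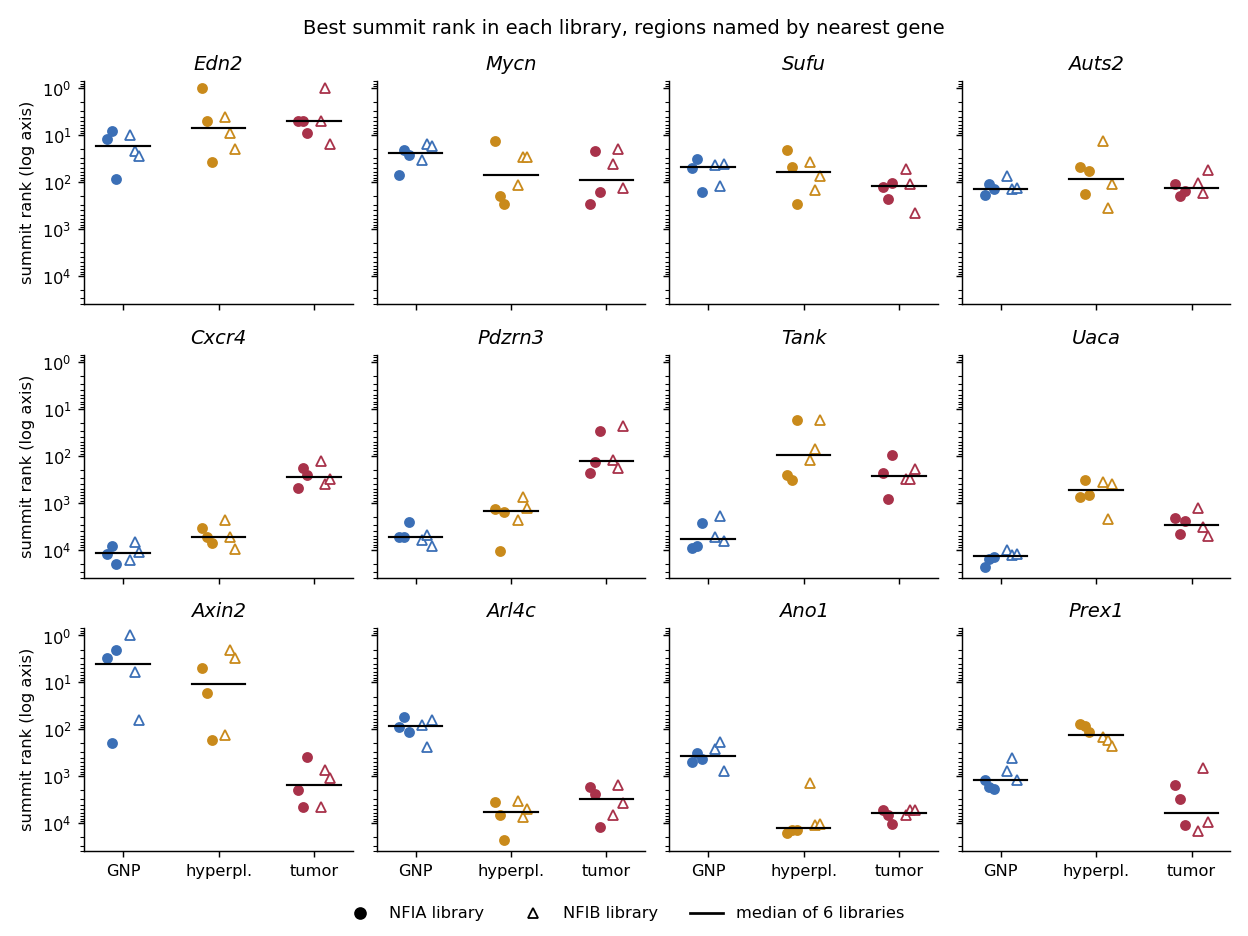
Rank of the best summit in each of the 18 libraries (vertical axis, log scale, rank 1 at the top) for 12 invariant distal regions named by their nearest gene, by stage (horizontal axis). Filled circles are NFIA libraries, open triangles NFIB libraries and lines the median of 6 libraries. In the top row the stages overlap, while tumors stand apart from GNPs in all panels of the middle row and in the first 3 panels of the bottom row.

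Within a member, the place of the best summit varied about as much between stages as within a preparation. The median distance between the summits of the 2 libraries of a preparation, NFIA and NFIB by the titles, was 63 bp (quartiles 27 and 126 bp). Since the target of 6 libraries is disputed, this is not a sure distance between the 2 proteins. Between different preparations of a stage it was 64 bp, and between stages 65 bp. In the 1033 members (30.0%) with a single top summit in each library, these distances were 44, 44 and 45 bp, and at the gene end regions they were 58, 59 and 59 bp. In no pair of libraries did more than 0.929% of the members share the same summit base. These are descriptions over library pairs that share preparations, with no test.

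Members were counted by their nearest gene in lists of genes. Of 20665 protein-coding genes, 2301 (11.1%) had a member nearest to them: 1622 had 1, 424 had 2 and 255 had 3 or more. Gse1, which encodes a protein of a histone demethylase complex, had 13 members, all inside its span of 353 kb, of 47 distal regions. Nfia had 10 of 39, Auts2, a neurodevelopmental gene of 1106 kb, 10 of 57, Tenm4, a teneurin adhesion gene, 9 of 40, and Tafa5 9 of 34. Over all genes 12.2% of the distal regions were members, and long genes have more regions of every kind.

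All 4 genes of the NFI family itself had members, 20 of their 83 distal regions (24.1%). Besides the 10 of Nfia there were 5 near or inside Nfib, 3 of Nfix and 2 of Nfic. The member of best standing inside Nfia (chr4:97910817-97911185) had median ranks of 440 in GNPs, 1766 in hyperplasia and 588 in tumors, with ranges that overlapped. Inside Nfix (chr8:84773977-84774308) the medians were 1696, 1506 and 2060.

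In the SHH pathway, 10 of the 15 autosomal genes listed had members, 21 of 95 distal regions (22.1%). Of the receptor components, Ptch1, which restrains the pathway, and the co-receptor gene Boc had 2 each, and the co-receptor genes Cdon and Gas1 and the signal transducer gene Smo had 1 each. Among the intracellular components, Gli2, the main activator, had 6 of its 23 distal regions, Gli3 had 1 and Sufu, which holds Gli proteins back, had 2. Of the targets, Mycn had 4 and Ccnd2, a cyclin gene of GNP proliferation, had 1. The Sufu member of higher standing (chr19:46422435-46422806, inside the gene) had ranks of 31.5 to 160 in GNPs (median 48), 21 to 294 in hyperplasia (median 60) and 52 to 446 in tumors (median 118). The ranges overlapped in all pairs of stages. Near Ccnd2 (chr6:127181390-127181720) the medians were 546, 222 and 128. Among the genes with no member, Hhip had 4 distal regions and Ccnd1 and Gpr161 had 3 each, while Gli1 had 0.

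Other lists of genes stood on either side of the share of 12.2%. Granule neuron differentiation genes had 21 members of 166 distal regions (12.7%), of which 8 were nearest to Rbfox1, a splicing factor of neurons, and 5 to Rbfox3, which encodes the neuronal marker NeuN. The list of zinc-finger and other cerebellar regulators had 35 of 274 (12.8%), with members at 14 of its 20 genes. Granule progenitor identity genes had 6 of 91 (6.59%), 1 each at Zic4, Meis1, Pax3, Sox11, Sox4 and Etv1. None was at Atoh1 or Pax6, which had 1 and 8 distal regions. Neural stem and progenitor genes had 6 of 77 (7.79%), and medulloblastoma genes 7 of 62 (11.3%). AP-1 and immediate early genes, which respond to stimulation, had 5 of 25 (20%), at Jun, Fos and Nr4a1. Cell cycle genes had 10 of 38 (26.3%), and 7 of these were nearest to Mki67, a marker of dividing cells, from 7374 to 366011 bp away from its end.

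Lists of markers of other cell types that the preparations could hold also differed among themselves. Astrocyte and Bergmann glia genes had 0 of 23 distal regions, microglia and macrophage genes 0 of 1, and genes of non-neural tissues 0 of 2. The 4 of 37 (10.8%) at vascular and meningeal genes were all nearest to Cdh5. Oligodendrocyte lineage genes had 5 of 21 (23.8%), a share close to that of the NFI family. Of these, 3 lay inside Pdgfra, the receptor gene of oligodendrocyte progenitors, of its 6 distal regions. Mbp had 1 of 7 and Mog 1 of 1. None was at Olig2, which had 4 distal regions, or at Olig1, Sox10 and Cspg4, which had 1 each. Purkinje cell and interneuron genes had 7 of 41 (17.1%), 3 near Lhx1, 2 near Skor2 and 1 each at Gad2 and Slc32a1. A distal region at a marker gene does not show that the gene was active, and the makeup of the preparations was not tested.

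**Figure D4:**
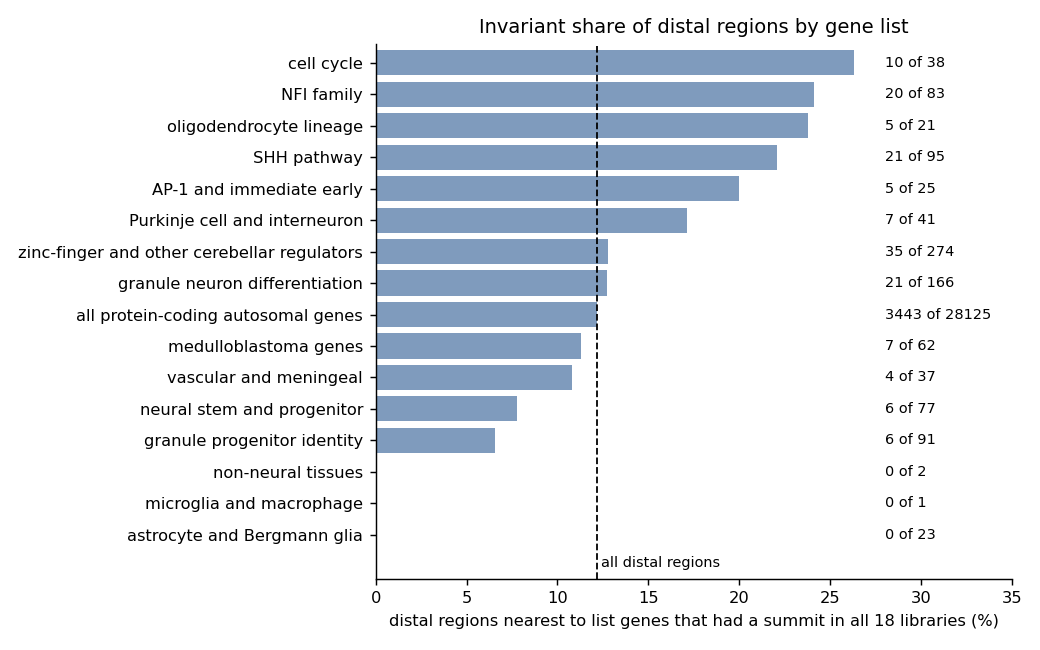
Share in percent of the distal regions nearest to the genes of each list (vertical axis) that had a top summit in all 18 libraries (horizontal axis), with the counts at the right. The dashed line is the share over all distal regions, 12.2%, and 5 lists stand at 20% or more: cell cycle (26.3%), NFI family (24.1%), oligodendrocyte lineage (23.8%), SHH pathway (22.1%) and AP-1 and immediate early (20%).

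The study followed NFI binding as normal progenitors give way to hyperplasia and tumor, and the ranks of the members were compared between stages in a single limma fit over the 6124 regions with a top summit in every library, with the mean of the NFIA and NFIB library as the value of a preparation. A summit in every library was required, so a region that vanished at a stage cannot appear here, and changes are bounded by the rank limit. In at least 1 of the 3 comparisons 679 members (19.7%) passed a Benjamini-Hochberg adjusted p of 0.05. Over all regions tested it was 944 (15.4%), and at gene ends 169 of 2092 (8.08%). The median standard error of a difference was 0.55 log2 units.

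In hyperplasia against GNPs more members moved down the ranking than up. Of the members 103 (2.99%) moved up and 239 (6.94%) moved down, where 2.34% and 4.59% of all tested regions did so, and of the gene end regions 32 moved up and 16 down. The median difference was -0.13 log2 units over the members and 0.03 over all tested regions. GNPs and hyperplasia share 2 title dates, and in the preparations of the first of them 248 members were called, against 342 in all preparations. The number of members called fell to 203 without the first GNP preparation, to 201 without the second and to 213 without the second hyperplasia preparation.

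The largest fall was near Arl4c (chr1:88643029-88643654), a gene for a small GTPase of the Arf family. Its ranks were 3313.5 to 22869.5 in hyperplasia (median 5713), against 55.5 to 233 in GNPs (median 84), without overlap. The difference was -6.07 ± 0.64 log2 units (SE; limma adjusted p = 9.67e-10). Inside Ano1, which encodes a chloride channel, the median was 12407 in hyperplasia, against 374 in GNPs, and inside Lemd1 it was 8334, against 262. Those differences were -4.61 and -4.57, again without overlap of the ranges.

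The largest rise was near Tank (chr2:61533148-61533439), which encodes an adaptor of TRAF signaling. Its ranks were 17 to 332 in hyperplasia (median 98), against 1960 to 9038.5 in GNPs (median 5940), a difference of 5.97 ± 0.76 (limma adjusted p = 1.53e-07). Near Uaca the median was 541 in hyperplasia, against 13625 in GNPs (4.53 ± 0.56), and inside Syn3, a synapsin gene, 395, against 6302 (3.90 ± 0.65). Neither pair of ranges overlapped. In tumors the medians of the Uaca and Syn3 regions were 2915 and 702.

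In tumors against GNPs the calls were more even, with 233 members (6.77%) up and 171 (4.97%) down, where 4.8% and 3.85% of all tested regions were called. At gene ends it was 28 up and 42 down. Without the second GNP preparation the number of members called was 232 in place of 404, and with list length as a covariate it was 236. Chromosome 6 stood apart: 41 of its 201 members (20.4%) moved up and 0 moved down, while 5.92% of the members on other chromosomes moved up. The median difference was 0.93 log2 units over the chromosome 6 members and 0.02 over the others. Without chromosome 6, 188 members moved up and 168 down.

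Near Cxcr4 (chr1:128803324-128804173, 211449 bp from the gene), which encodes the chemokine receptor that holds GNPs at the surface of the cerebellum, the ranks were 129 to 493 in tumors (median 288). They were 6906 to 20544.5 in GNPs (median 11612) and 2389 to 9466.5 in hyperplasia (median 5308). All 6 tumor libraries stood above all 12 others. The difference was 5.45 ± 0.58 log2 units between tumors and GNPs (limma adjusted p = 1.24e-09) and 4.23 ± 0.58 between tumors and hyperplasia.

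The other large rises in tumors were near Pdzrn3 and inside Denn2b. At Pdzrn3 (chr6:101473210-101473741), a ubiquitin ligase gene on chromosome 6, the median rank was 130 in tumors, against 5413 in GNPs, a difference of 5.87 ± 0.68. At Denn2b (chr7:109536284-109537059), which encodes an activator of a Rab GTPase, it was 116 in tumors, against 6504 in GNPs, a difference of 5.46 ± 0.69. The Denn2b region already stood at a median of 671 in hyperplasia, where the difference from GNPs was 3.31 ± 0.69 and the ranges overlapped.

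The steepest fall of any member was near Axin2 (chr11:109011717-109012029, 61090 bp from the gene), an inhibitor and target of Wnt signaling. Its ranks were 385 to 4603.5 in tumors (median 1547), against 1 to 199 in GNPs (median 4). In hyperplasia they were 2 to 165 (median 11). No tumor library overlapped either stage. The difference was -7.46 ± 0.96 log2 units between tumors and GNPs (limma adjusted p = 1.37e-07) and -6.68 ± 0.96 between tumors and hyperplasia. The Arl4c region, low in hyperplasia, was also low in tumors (median 3057, -5.23 ± 0.64 against GNPs). Near Sorl1, a sorting receptor gene, the median was 7552 in tumors, against 125 in GNPs (-4.94 ± 0.73), though the best tumor library, at 387.5, overlapped the GNP range.

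In tumors against hyperplasia 143 members (4.15%) moved up and 37 (1.07%) moved down, where 3.14% and 1.78% of all tested regions did so. At gene ends the balance was the other way, with 23 up and 68 down. The median difference was 0.25 log2 units over the members, -0.49 at gene ends and -0.04 over all tested regions. On chromosome 6, 34 of 201 members (16.9%) moved up and 0 down, against 3.36% up on the other chromosomes. This count leaned on single preparations: it was 71 without the second hyperplasia preparation and 47 without the third, and 111 without the first and 90 without the second tumor preparation, in place of 180.

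Some regions had their highest or lowest median in hyperplasia. Inside Prex1 (chr2:166632573-166633014), which encodes an activator of Rac, the ranks were 407 to 1866.5 in GNPs, 76 to 229 in hyperplasia and 682 to 14584.5 in tumors. The difference was -5.01 ± 0.69 between tumors and hyperplasia and 3.05 ± 0.69 between hyperplasia and GNPs. Inside Epb41l3, a membrane skeleton gene, the medians were 8645 in GNPs, 840 in hyperplasia and 7049 in tumors (3.47 ± 0.54 for hyperplasia against GNPs, -3.17 ± 0.54 for tumors against hyperplasia). The region near Slc24a2 (chr4:87461269-87461822) went the other way, with medians of 124, 550 and 42. It fell by 3.22 in hyperplasia against GNPs and was 4.35 ± 0.84 higher in tumors than in hyperplasia. The first of those calls was lost without the first or second GNP preparation (limma adjusted p = 0.0635 and 0.0737) or the third hyperplasia preparation (limma adjusted p = 0.138).

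**Figure D5:**
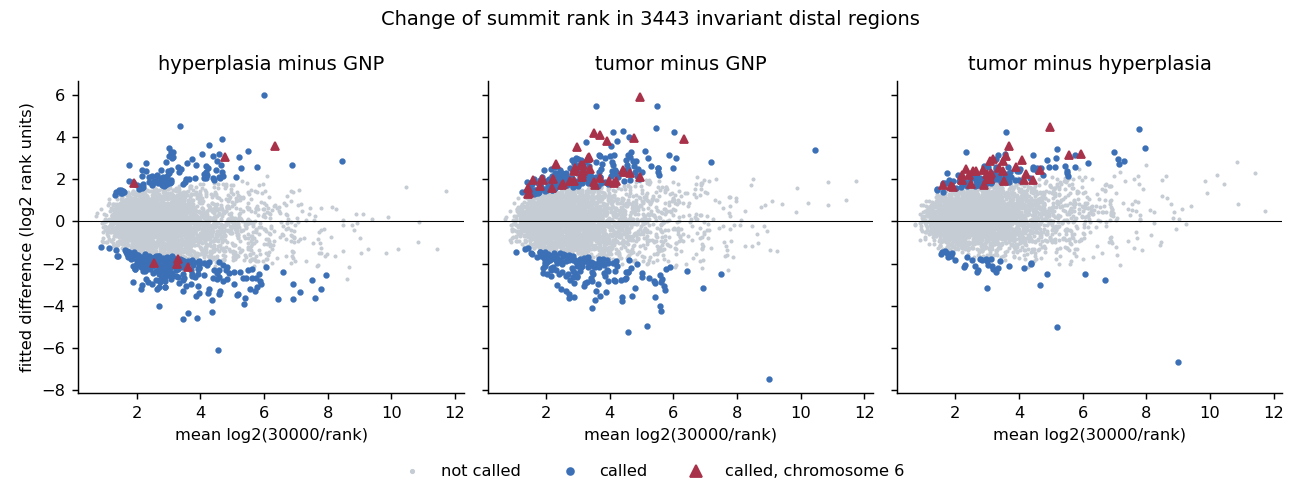
Fitted difference of log2(30000/rank) between 2 stages (vertical axis) against the mean of log2(30000/rank) over the 18 libraries (horizontal axis) for each of the 3443 invariant distal regions. Blue points and red triangles (chromosome 6) passed an adjusted p of 0.05. The red triangles all lie above 0 in both comparisons with tumors.

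Among the 147 members nearest to list genes, 27 (18.4%) were called in at least 1 comparison, a share close to the 19.7% of all members, and those named here were picked from them after their values were seen. In the SHH list, 1 of 21 members moved up and 3 down in hyperplasia against GNPs, 2 up and 0 down in tumors against GNPs, and 2 up and 0 down in tumors against hyperplasia. Over all members the shares up and down were 2.99% and 6.94%, 6.77% and 4.97%, and 4.15% and 1.07%, and with 21 members these counts are too small to set the list apart. Both rises in tumors against GNPs were at genes that also had a member of steady high rank. The second Sufu member (chr19:46452081-46452663) had ranks of 138 to 2025 in tumors (median 357), against 3624 to 6996.5 in GNPs (median 5529), a difference of 3.55 ± 0.64 (limma adjusted p = 0.000116). By the same test, a second Mycn member (chr12:12810187-12810619, 125690 bp from the gene) had a median of 600 in tumors, against 4486 in GNPs, a difference of 3.05 ± 0.67 (limma adjusted p = 0.00141). Its median in hyperplasia was 569, and the rise there of 2.67 against GNPs was lost without the second GNP or the first hyperplasia preparation (limma adjusted p = 0.0521 and 0.0722). In tumors against hyperplasia the calls were the same Sufu member (2.46) and a Gli2 member (chr1:118954638-118955357, 1.98). The Sufu call was lost without the third hyperplasia or the first tumor preparation (limma adjusted p = 0.208 and 0.106), and the Gli2 call without 4 of the 9.

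The 3 falls of the SHH list in hyperplasia were at Gli2 and Boc. At the Gli2 member of chr1:119001275-119002044 the ranks were 2384.5 to 15141.5 in hyperplasia (median 6008), against 475 to 2051 in GNPs (median 1062), a difference of -2.69 ± 0.58 (limma adjusted p = 0.0015). It was called with each preparation left out in turn. The other Gli2 call (chr1:118789359-118790244, -1.70 ± 0.48) was lost without the first GNP, the second hyperplasia or the third hyperplasia preparation (limma adjusted p = 0.116, 0.113 and 0.0591). The Boc call (-2.27 ± 0.59) was lost without the same preparations (limma adjusted p = 0.171, 0.0543 and 0.0575).

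In the NFI family 1 of 20 members fell in hyperplasia against GNPs, where 6.94% of all members fell. It lies near Nfib (chr4:82643176-82644125). Its ranks were 763 to 4923 in hyperplasia (median 2488), against 190 to 504 in GNPs (median 338), a difference of -2.66 ± 0.68 (limma adjusted p = 0.00899), and in tumors the median was 592. Without the second hyperplasia preparation the limma adjusted p was 0.0541, and without the third it was 0.0974. In tumors against GNPs 1 of the 20 rose, where 6.77% of all members rose. That member, inside Nfia (chr4:98047210-98047617), was higher in tumors by 2.42 ± 0.65 (limma adjusted p = 0.0103). The call was lost without the second tumor preparation (limma adjusted p = 0.0755) and with list length as a covariate (limma adjusted p = 0.128).

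At other lists, the rises in tumors against GNPs included members near Jun, an AP-1 gene (2.40 ± 0.59), near Rbfox1 (2.80 ± 0.56), inside Foxp1 on chromosome 6 (2.41 ± 0.61) and inside Zfhx3 (2.38 ± 0.54). Falls included members inside Pdgfra (chr5:75171886-75172342, -2.49 ± 0.54) and near Bcl11a (-2.38 ± 0.54). Over all members 6.77% rose and 4.97% fell in this comparison. The list of zinc-finger and other cerebellar regulators had 2 rises, the Foxp1 and Zfhx3 members, and 5 falls among its 35 members. These counts are too small to set the list apart. Besides Bcl11a the falls were 2 inside Auts2 (-2.65 and -1.89), 1 inside Tcf3 (-1.44) and a second Zfhx3 member (chr8:108885403-108885964, -1.62), and of these 4 the Auts2 fall of -2.65 alone held without each preparation. In the Pdgfra member the median rank was 16377 in tumors, against 2390 in GNPs, while the best placed of the 3 Pdgfra members had medians of 1316 in tumors and 506 in GNPs. The 6 calls given with their errors held with each preparation left out in turn, but the Jun call was lost with list length as a covariate (limma adjusted p = 0.0508). Near Hes5, a Notch target gene, the rise of 2.19 ± 0.57 was lost without the second GNP or second tumor preparation (limma adjusted p = 0.0817 and 0.0634).

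Few changes of summit position were called. The position of the best summit inside a member, in bp, was compared in the same way, with a median standard error of 40.53 bp. The median size of a fitted difference was 30.0 bp in hyperplasia against GNPs, 32.17 bp in tumors against GNPs and 33.17 bp in tumors against hyperplasia. These lie below that error, so that few calls do not show that summits stayed in place. In hyperplasia against GNPs 0 members were called toward higher and 1 toward lower coordinates (0.0% and 0.0163% of all tested regions). In tumors against GNPs it was 0 each way (0.0% of all), with 101 and 122 at an unadjusted p under 0.05, and in tumors against hyperplasia 2 and 0 (0.0327% and 0.0%). No other tool was run on positions.

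Both regions with a call were wide and held summits at separate places. In the region near Tbc1d21 (chr9:58409216-58410689) the offsets of the best summit from the midpoint in hyperplasia were -529 and 620 bp in the first preparation, 436 and -554 bp in the second, and -499 and 533 bp in the third (NFIA first). In GNPs they lay between 389 and 564 bp, and in tumors between 415 and 571 bp. The fitted shift of -501 bp in hyperplasia against GNPs (limma adjusted p = 0.00595) is therefore a mean of libraries at opposite ends of the region, with no summit at the mean. It was called in neither target alone, and was lost without the first GNP preparation (limma adjusted p = 0.0649) in the preparations of the first title date (0.312) and on leaving out 1 library, the second NFIA library of hyperplasia (0.405). With 15000 top summits it was -17.3 bp. In tumors against hyperplasia the shift was 503 bp, lost without the second tumor preparation (limma adjusted p = 0.0584) or that NFIA library (0.394), and 19.2 bp with 15000 top summits. Inside Ntsr1, the shift of 448 bp in tumors against hyperplasia (limma adjusted p = 0.0291) was lost in 7 of 9 leave-one-out fits, with limma adjusted p between 0.0584 and 0.165.

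NFIA and NFIB were compared within preparations, by the difference of their log2(30000/rank). By limma, 0 of the 3443 members were called in either direction, as were 0 of the 6124 regions tested (0.0%), with 42 members higher and 50 lower for NFIA at an unadjusted p under 0.05. The median difference was 0.03 log2 units (quartiles -0.28 and 0.33), with a median standard error of 0.43. A difference has to be large to be called, so that 0 calls do not show that NFIA and NFIB ranked alike. Should the data names hold, 6 of the 9 preparations have libraries of only 1 target, and this difference does not compare the proteins in them. Title and data name give the same targets for both libraries only in the second preparation of each stage. In those 3 preparations 21 members were called, 19 of them higher for NFIA, and the share over all tested regions is not given here. They include the hyperplasia NFIA library in which 20.4% of the kept summits share the score of the last one kept. Its list held 362180 summits and that of the tumor NFIA library 385466, against a median of 105300 over the 18 libraries. Which protein the 6 disputed libraries hold, and so what this comparison measures, is not certain.

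Most members, 2865 (83.2%), had no other member within 20 kb, and the remaining 578 formed 264 runs. Counting all regions hit by at least 3 libraries, 26.4% of the members had no neighbor within 20 kb. Among the other distal regions it was 33.2%. The longest run held 9 members over 89623 bp between Wnt7b, a Wnt ligand gene, and Ppara (chr15:85610792-85700414). Its best placed member (chr15:85634499-85634762, 52809 bp from the nearest gene end) had median ranks of 554 in GNPs, 190 in hyperplasia and 219 in tumors. In tumors against GNPs 2 of the 9 rose, by 1.88 ± 0.57 (limma adjusted p = 0.0263) near Wnt7b and by 1.96 ± 0.49 (limma adjusted p = 0.00508) near Ppara. The first was lost without 4 of the 9 preparations in turn and the second without the second GNP preparation (limma adjusted p = 0.0512). Other runs held 6 members inside Soga1 and 5 inside Gse1.

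Of the 919 autosomal microRNA hairpins in the RefSeq table, 5 were overlapped by 4 members. A single member near Nrf1 (chr6:30169105-30169731, ranks 1635 to 23355.5) covered Mir96 and overlapped Mir183, neighbors in a cluster known from sensory cells. The member over Mir344g (chr7:61982058-61982568, near Ndn) had ranks of 335 to 6814.5, and the other 2 lay over Mir344 and Mir6387.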

How the data were processed

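The deposited files are MACS2 summit lists of 18 libraries, aligned with Bowtie2 to mm10, per the submitters' processing notes (versions and MACS2 settings are not given in the sources used here). Each summit carries a score of the authors' peak caller, taken here as -log10 p, for 1 library each, with a lowest value of 2.00 over the lists. Depth and any control library are not given in the sources used here, so no intervals are printed. Ranks replaced scores because scores grow with depth.

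Ranks, regions and distances to RefSeq gene spans (20665 protein-coding autosomal genes) were computed in Python 3.11.15. Differences were fitted over all 6124 regions with a summit in every library with limma 3.58.1 (trend, empirical Bayes, Benjamini-Hochberg) in R 4.3.3, after the code was tested on simulated data. NFIA and NFIB were compared as paired differences. Named regions are the 10 with the best worst rank, the best placed region of up to 3 genes per list, up to 3 calls of rank and 2 of position per direction, the 5 with the smallest SD, the 3 nearest each limit, and those of the 5 genes with most members and the 3 longest runs. Windows, hairpins and further list members were picked after their values were seen. The members and lists were chosen with earlier results of these data known. A motif search over regions was not run, since a genome was not used here. Some regions and genes that the rule names are not reported here. Alternatives are given in the closing section.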

Additional observations from a re-analysis of the deposited data

How the results depend on the processing

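The number of invariant distal regions, 3443, was 1646 with 15000 top summits per library, and stayed within 1.5 times under the other settings tried, between 2365 (over 20 kb from gene ends) and 5087 (summits in at least 17 libraries). Members with a changed rank numbered 342 in hyperplasia against GNPs, 404 in tumors against GNPs and 180 in tumors against hyperplasia. In the same order these were 39, 34 and 5 with NFIA libraries only, 99, 154 and 38 with NFIB libraries only, 123, 164 and 81 with 15000 top summits, and 200, 248 and 29 in a table of all regions hit by at least 3 libraries. With list length as a covariate the tumor against GNP count was 236. Leaving out 1 preparation at a time gave 201 to 415, 232 to 423 and 47 to 210. The cause of these differences was not tested.

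Preparation numbers were not taken as a pairing of the samples in the main fit. Same-numbered preparations of different stages correlated at 0.19 to 0.36 for numbers 1 and 3, but at -0.01 to -0.02 for number 2. Preparations numbered 1 and 3 of different stages correlated at -0.21 to -0.36, and these are the numbers in which titles and data names disagree, so that the counts by target rest on uncertain targets. With the replicate block the counts were 573, 601 and 395, and 1 shifted summit in tumors against hyperplasia.

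Shifted summits numbered 1 in hyperplasia against GNPs, 0 in tumors against GNPs and 2 in tumors against hyperplasia. The first count was 2 with NFIB libraries only and 0 with NFIA libraries only, without the second NFIA library of hyperplasia, in the preparations of the first title date, in single-summit regions and with 15000 top summits. The second was 1 with 15000 top summits. The last was 1 with list length as a covariate, over 20 kb from gene ends and without that NFIA library, and 0 with NFIA libraries only, in single-summit regions and with 15000 top summits. Leaving out 1 preparation gave 0 to 3, 0 to 1 and 0 to 2. The NFIA against NFIB count was 21 in the 3 preparations whose titles and data names give the same targets. Of 78 calls of single regions, 41 held without each preparation, and 0 reversed under any setting.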
